A study of Mus musculus with 18 samples.

Results

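The 38 mouse genes described here carry glucose through glycolysis or belong to the response to low oxygen, and they were taken by symbol from the 55335 genes of the count tables. Of these, 27 encode glucose and lactate transporters, the enzymes from hexokinase to lactate dehydrogenase, the bifunctional enzymes that set fructose-2,6-bisphosphate and the pyruvate dehydrogenase kinases. The other 11 are 2 hypoxia-inducible factor (HIF) α subunits, 2 HIF prolyl hydroxylases and 7 genes often read as reporters of hypoxia. All 38 were found, with Aldoa read under ENSMUSG00000030695, since its symbol has 2 identifiers. After a filter on low counts, 37 could be tested at d2.5 and 35 at d5. Slc16a3 was too low on both days, and Ankrd37 and Car9 were too low at d5.

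Bulk RNA-seq was made from O9-1 cells, a multipotent neural crest (NC) line that came from the head of early mouse embryos, after 2.5 or 5 days in osteoblast differentiation medium. On each day there were 3 groups of 3 libraries: scramble siRNA with vehicle (Ctrl+vehicle), scramble siRNA with FGF2 (Ctrl+FGF2), and siRNA pools against Yap1 and Wwtr1 (Taz) with FGF2 (Y/T dKD+FGF2). They are also called the vehicle, FGF2 and knockdown libraries. All cells are labelled wildtype, the siRNA acts as a transient knockdown, and no group received the Yap1 and Wwtr1 siRNA with vehicle. No label gives a change of oxygen, and the labels do not say whether the 3 libraries of a group came from separate cultures, so that p-values measure the spread between these libraries. The comparison of FGF2 with vehicle addresses what the growth factor does during osteogenic induction, and the comparison of both FGF2 groups addresses what depends on Yap and Taz.

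Glycolysis splits glucose into pyruvate through a series of cytosolic enzymes and yields ATP without oxygen. Lactate dehydrogenase turns pyruvate into lactate and returns NAD+ to the pathway, whereas the pyruvate dehydrogenase kinases restrain entry of pyruvate into the mitochondrion. In normal oxygen, prolyl hydroxylases of the Egln family mark HIF-1α for destruction. When oxygen is short, HIF-1 accumulates, binds a short DNA motif in promoters and enhancers and raises many glycolytic genes together with the reporters, and cells of the osteoblast lineage are known for high glycolytic flux.

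The promoters of 7 members are shown because their genes carry the main patterns below: Slc16a1 reversed its response to FGF2 between the days, Pgk1, Ldha and Tpi1 stand for the enzymes, and Egln3, Ankrd37 and Ddit4 stand for the hypoxia genes. Each sequence (RefSeq, GRCm38.p6) is written 5′ to 3′ on the strand of its gene and runs towards the annotated start, stopping where the gene annotation places an exon. Capitals mark ACGTG or GCGTG, the core letters of the hypoxia response element, on either strand, so that CACGT and CACGC are matches on the opposite strand. CACGTG in capitals is a pair of overlapping matches and also spells the E-box bound by other factors.
Slc16a1, chr3:104638414-104638663, plus strand: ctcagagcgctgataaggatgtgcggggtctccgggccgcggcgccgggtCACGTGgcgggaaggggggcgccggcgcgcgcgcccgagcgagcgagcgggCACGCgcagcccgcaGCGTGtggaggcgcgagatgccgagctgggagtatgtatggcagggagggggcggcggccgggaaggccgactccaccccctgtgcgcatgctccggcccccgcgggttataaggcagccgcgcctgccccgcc
Pgk1, chrX:106186850-106187099, plus strand: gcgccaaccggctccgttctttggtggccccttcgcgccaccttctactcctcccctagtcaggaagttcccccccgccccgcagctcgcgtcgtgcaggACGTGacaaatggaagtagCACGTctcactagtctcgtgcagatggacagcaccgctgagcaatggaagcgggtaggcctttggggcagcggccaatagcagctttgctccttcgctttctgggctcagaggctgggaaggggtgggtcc
Ldha, chr7:46845554-46845803, plus strand: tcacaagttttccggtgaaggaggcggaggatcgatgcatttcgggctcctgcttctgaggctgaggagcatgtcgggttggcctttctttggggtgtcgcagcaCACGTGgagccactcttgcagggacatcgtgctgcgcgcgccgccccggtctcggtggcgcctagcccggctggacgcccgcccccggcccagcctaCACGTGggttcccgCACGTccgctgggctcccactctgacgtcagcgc
Tpi1, chr6:124814297-124814408, minus strand: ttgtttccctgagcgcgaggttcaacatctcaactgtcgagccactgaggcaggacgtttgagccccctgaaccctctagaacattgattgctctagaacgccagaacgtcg
Egln3, chr12:54203875-54204124, minus strand: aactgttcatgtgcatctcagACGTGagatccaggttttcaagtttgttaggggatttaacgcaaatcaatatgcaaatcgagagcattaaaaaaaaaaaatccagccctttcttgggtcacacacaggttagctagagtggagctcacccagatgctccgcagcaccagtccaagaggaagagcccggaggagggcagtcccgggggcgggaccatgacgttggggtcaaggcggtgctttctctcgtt
Ankrd37, chr8:45999868-46000100, minus strand: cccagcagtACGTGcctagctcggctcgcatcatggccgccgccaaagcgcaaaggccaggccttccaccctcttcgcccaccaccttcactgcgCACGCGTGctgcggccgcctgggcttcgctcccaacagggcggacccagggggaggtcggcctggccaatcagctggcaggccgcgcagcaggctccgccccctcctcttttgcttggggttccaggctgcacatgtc
Ddit4, chr10:59951835-59952020, minus strand: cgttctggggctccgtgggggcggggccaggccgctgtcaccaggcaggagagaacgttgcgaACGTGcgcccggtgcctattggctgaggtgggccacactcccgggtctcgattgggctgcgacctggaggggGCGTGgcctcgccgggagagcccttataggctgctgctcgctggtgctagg

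The printed stretches held 5 matches in Ldha, 4 in Slc16a1, 3 in Ankrd37, 2 each in Pgk1 and Ddit4, 1 in Egln3 and 0 in Tpi1. Over the full windows of 300 bases (250 before and 50 after the start), 35 of the 38 members had 51 windows, and 40 of these windows (78.4%) held at least 1 match. Among all 32851 RefSeq promoter windows the share was 43.8%. ACGTG alone was in 52.9% of member windows and 19.6% of all windows, and GCGTG in 54.9% and 32.4%. Member windows also had a higher median GC content (62.3%) than all windows (52.7%), and the part of GC content in the motif share was not tested. The 38 windows of members that rose with FGF2 at d2.5 held a match in 78.9% of cases and the other 13 member windows in 76.9%. The windows of Eno2, Gpi1 and Tpi1 held no match, and Slc2a3, Epas1 and Ndrg1 are named without a window. A match is a stretch of letters and was not read as a binding site.

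Both siRNA targets were lower in the knockdown, which checks the labels. Yap1 fell from 129 ± 2.8 to 66.8 ± 2.45 CPM (SD, n = 3) at d2.5 and from 152 ± 5.96 to 70.5 ± 3.4 at d5, with log2 fold changes of -0.96 ± 0.042 and -1.12 ± 0.051 (SE). Wwtr1 fell as well, with -0.72 ± 0.036 and -0.80 ± 0.038. FGF2 itself raised Wwtr1 at d2.5 (log2 fold change 0.65 ± 0.035, adjusted p = 1.3e-16), and on that day its level in Y/T dKD+FGF2 did not pass the test against Ctrl+vehicle (log2 fold change -0.065 ± 0.037, adjusted p = 0.122). Libraries held 10377151 to 14698525 reads assigned to genes, and levels are given as counts per 1000000 reads (CPM) after TMM scaling of all 18 libraries. Of 7 NC markers, Sox10 and Foxd3 had 0 counts in every library, which allows at most 0.193 to 0.305 CPM at 3 counts per library, and the other 5 were read, with summed levels of 177 to 305 CPM. Markers of osteoblasts, a sum over 7 genes, ranged over 13260 to 13420 CPM in the vehicle libraries, 2742 to 2892 in the FGF2 libraries and 3157 to 3231 in the knockdown libraries at d2.5, and over 31100 to 33110, 15870 to 17620 and 21940 to 23320 at d5. Col1a1 made up most of this sum in every group, with mean levels of 12640, 2203 and 2009 CPM at d2.5 and 31910, 16650 and 21840 at d5 in the same order of groups. The single markers did not all move with it. At d2.5, 5 of the 6 tested fell with FGF2 and 1, the osteocyte gene Dmp1, rose (log2 fold change 5.25), and with the knockdown 3 rose, 1 fell and 2 were not called. At d5, FGF2 raised 3 of 7 and lowered 4, and all 7 rose with the knockdown. Summed markers of smooth muscle were 168 to 231 CPM in the vehicle libraries, 22.7 to 23.7 in the FGF2 libraries and 13.7 to 15.3 in the knockdown libraries at d2.5, and 2032 to 2146, 2674 to 3070 and 2111 to 2272 at d5. In the same order, chondrocyte markers were 704 to 924, 117 to 129 and 113 to 120.1 CPM at d2.5 and 222 to 327, 324 to 432 and 393 to 403 at d5. Mesenchyme markers were 5597 to 5994, 7410 to 7498 and 7467 to 7544 CPM at d2.5 and 6794 to 7077, 8371 to 8591 and 6328 to 6489 at d5. Neuronal markers were 63.3 to 68.9, 19.3 to 23.1 and 18.1 to 19.6 CPM at d2.5 and at most 5.43 at d5. The share of reads from mitochondrial genes was 0.701 to 1.02%, 0.451 to 0.495% and 0.528 to 0.643% at d2.5 and 0.681 to 0.766%, 0.57 to 0.588% and 0.595 to 0.647% at d5. These markers and shares differed between groups compared below, and their part in the results was not tested. Glial markers were at most 3.8 CPM, and markers of blood, endothelial and epithelial cells were at most 4.14 CPM. In bulk RNA, fewer cells of a type and less RNA per cell cannot be told apart.

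At d2.5, FGF2 was followed by higher levels of most of these genes. Together the 38 genes took 0.773%, 0.819% and 0.799% of all assigned reads in the vehicle libraries, 1.28%, 1.25% and 1.26% in the FGF2 libraries and 1.13%, 1.11% and 1.1% in the knockdown libraries. The groups did not overlap, with Ctrl+FGF2 highest and Y/T dKD+FGF2 between the others. Among 37 members tested with edgeR, 28 rose with FGF2, 7 fell and 2, Pfkp and Pdk3, did not pass the threshold of an adjusted p of 0.05. Over all 13677 genes tested in this comparison 33.5% were called higher and 34.1% lower. The median log2 fold change was 0.55 over the members and 0.0022 over all genes. The members that fell were Pfkm, Pfkfb4, Eno2, Ldhb, Pdk2, Hif1a and Epas1.

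Knockdown of Yap and Taz under FGF2 was followed by smaller changes at d2.5, mostly downward. Against the FGF2 libraries, 18 of 37 members fell, 4 rose and 15 were not called, against 13.6% of all genes lower and 10.8% higher. Without replicate 3 of Y/T dKD+FGF2, 916 in place of 1483 genes were called higher. The median log2 fold change was -0.19 over the members. Of the 15 enzymes from hexokinase to pyruvate kinase 13 fell and Pfkm and Eno2 were not called. The median over these 15 was -0.23. Of 7 hypoxia reporters 1 fell, 1 rose and 5 were not called, with a median of -0.12. A call depends on counts as well as on the size of the change. Car9 and Ankrd37 had 245 and 500 counts over the 3 Ctrl+FGF2 libraries. Under other settings Ankrd37, Ddit4 and Bnip3 gained a call (2, 3 and 1 settings). The 4 members that rose were Slc16a1, Pdk3, Pdk4 and Kdm3a, and 2 of these calls were lost without replicate 3 of Ctrl+FGF2 at d2.5. This comparison and the preceding one share the Ctrl+FGF2 libraries. Against Ctrl+vehicle, Y/T dKD+FGF2 had 27 of 37 members higher and 10 lower, where 34.1% of all genes were higher and 35.7% lower, and the median of the members was 0.37.

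At d5 the members were split in their response to FGF2. They took 0.371%, 0.335% and 0.355% of assigned reads in the vehicle libraries, 0.399%, 0.381% and 0.391% in the FGF2 libraries and 0.361%, 0.362% and 0.36% in the knockdown libraries. These shares are not TMM-scaled. The scaled sums were 3780 to 4109 CPM with vehicle, 3975 to 4061 with FGF2 and 3768 to 3846 after the knockdown, so that vehicle and FGF2 overlapped. Of 35 members tested, 12 rose with FGF2, 9 fell and 14 were not called, beside 23.5% of all 13304 genes higher and 23.7% lower. The median was 0.026 over the members and 0.016 over all genes. After knockdown under FGF2, 4 members rose, 14 fell and 17 were not called, with 15.6% of all genes higher and 16.1% lower and a member median of -0.071. The rises were those of Pgam1, Eno2, Slc16a1 and Epas1, and 2 remained when replicate 2 or replicate 3 of Y/T dKD+FGF2 at d5 was left out. Y/T dKD+FGF2 against Ctrl+vehicle gave 8 members higher, 15 lower and 12 not called, against 20.7% of all genes higher and 21.1% lower.

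Glucose enters through Slc2a1 (GLUT1), the widely expressed transporter, and Slc2a3 (GLUT3), a high-affinity one. At d2.5, Slc2a1 stood at 39.5, 35.5 and 41.1 CPM in the vehicle libraries, 90.4, 97.5 and 92.8 in the FGF2 libraries and 70.5, 68.4 and 68.9 in the knockdown libraries. No library of one group overlapped another group. FGF2 raised Slc2a1 2.4-fold (log2 fold change 1.26 ± 0.051, adjusted p = 6.29e-20), and the knockdown lowered it without reaching the vehicle level (log2 fold change -0.44 ± 0.047, adjusted p = 4.29e-08 against Ctrl+FGF2, and log2 fold change 0.82 ± 0.054, adjusted p = 1.18e-14 against Ctrl+vehicle). At d5, Slc2a1 read 39, 34.9 and 35.5 CPM in the vehicle libraries, 64.2, 53 and 54.9 in the FGF2 libraries and 45.9, 48.3 and 48.8 in the knockdown libraries. The order of the groups was the one of d2.5, again without overlap, with smaller steps (log2 fold change 0.67 ± 0.071, adjusted p = 6.4e-07 for FGF2, and log2 fold change -0.27 ± 0.068, adjusted p = 0.00517 for the knockdown). Slc2a3 was far lower, with 1.45, 1.81 and 0.618 CPM in the vehicle libraries, 5.92, 5.68 and 6.28 in the FGF2 libraries and 3.64, 6.92 and 5.45 in the knockdown libraries at d2.5. Its FGF2 libraries all lay above the vehicle libraries (log2 fold change 2.15 ± 0.24, adjusted p = 2.25e-09), while the knockdown libraries ranged across them (log2 fold change -0.16 ± 0.18, adjusted p = 0.564). At d5 the values of Slc2a3 were 2.61, 2.58 and 2.6 CPM in the vehicle libraries, 4.5, 3.83 and 4.04 in the FGF2 libraries and 4.51, 4.74 and 3.97 in the knockdown libraries, and FGF2 again raised it (log2 fold change 0.67 ± 0.17, adjusted p = 0.00378). Per kb of exon, Slc2a1 held at least 95.7% of the summed level of both transporters in every group.

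**Figure D1:**
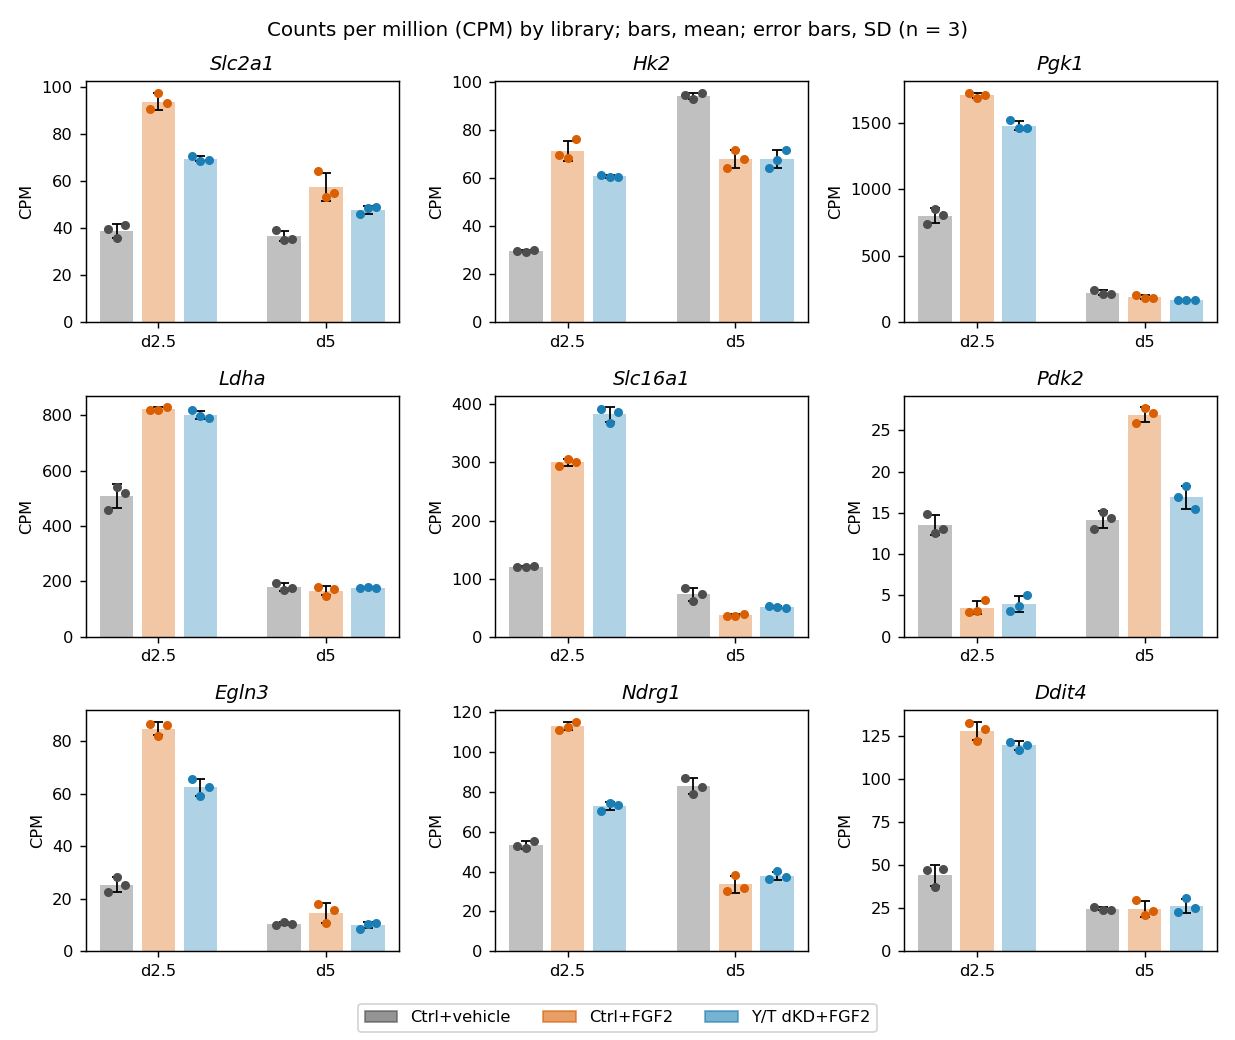
Levels in CPM (linear axes from 0) of 9 members in each of the 6 groups; bars are means, whiskers SD (n = 3) and points single libraries. At d2.5 the FGF2 libraries of Slc2a1, Hk2, Pgk1, Ldha, Slc16a1, Egln3, Ndrg1 and Ddit4 lie above all vehicle libraries and those of Pdk2 below them, whereas at d5 Hk2, Pgk1, Slc16a1 and Ndrg1 lie below the vehicle libraries and Pdk2 above them.

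Hexokinases trap glucose as glucose-6-phosphate, and Hk2 is the inducible form beside the constitutive Hk1. At d2.5, Hk2 read 29.6, 29.3 and 30 CPM in the vehicle libraries, 69.3, 68 and 76.1 in the FGF2 libraries and 61.2, 60.4 and 60.2 in the knockdown libraries, so that FGF2 raised it 2.39-fold (log2 fold change 1.25 ± 0.053, adjusted p = 2.51e-19) and the knockdown lowered it slightly (log2 fold change -0.24 ± 0.048, adjusted p = 0.000403). At d5 the direction was the opposite, with 94.6, 92.7 and 95.2 CPM in the vehicle libraries, 64.2, 71.7 and 67.6 in the FGF2 libraries and 64.2, 67.5 and 71.7 in the knockdown libraries. Every vehicle library of d5 lay above every FGF2 library (log2 fold change -0.46 ± 0.051, adjusted p = 1.05e-06), and both FGF2 groups overlapped (log2 fold change -0.011 ± 0.053, adjusted p = 0.898). Hk1 moved little, from 194, 187 and 196 CPM in the vehicle libraries, 210.0, 202 and 208 in the FGF2 libraries and 177, 178 and 176 in the knockdown libraries at d2.5 and 136, 124 and 137 CPM in the vehicle libraries, 147, 137 and 142 in the FGF2 libraries and 115, 121 and 122 in the knockdown libraries at d5. Its rise with FGF2 at d2.5 was small (log2 fold change 0.092 ± 0.034, adjusted p = 0.0173) and was lost without replicate 2 of Ctrl+vehicle (adjusted p = 0.0686) or replicate 1 of Ctrl+FGF2 (adjusted p = 0.0744). The d5 rise (log2 fold change 0.12 ± 0.046, adjusted p = 0.0483) was lost in 6 of the 9 fits without 1 library, with adjusted p up to 0.252. Knockdown lowered Hk1 on both days, by -0.23 ± 0.034 at d2.5 and -0.26 ± 0.047 at d5 on the log2 scale.

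Gpi1, the isomerase that makes fructose-6-phosphate, rose with FGF2 on both days (log2 fold change 0.75 ± 0.038, adjusted p = 2.29e-17 at d2.5, and log2 fold change 0.22 ± 0.051, adjusted p = 0.00141 at d5). Phosphofructokinase, the committed step, has a liver (Pfkl), a muscle (Pfkm) and a platelet form (Pfkp). Pfkl read 74.4, 78 and 75.3 CPM in the vehicle libraries, 114, 107 and 107 in the FGF2 libraries and 94.7, 96.4 and 93.5 in the knockdown libraries at d2.5 and 35.1, 33.2 and 32.3 CPM in the vehicle libraries, 40, 34 and 41.5 in the FGF2 libraries and 31.8, 29.9 and 31.6 in the knockdown libraries at d5. It rose with FGF2 at d2.5 (log2 fold change 0.52 ± 0.042, adjusted p = 1.99e-12) and fell with the knockdown on both days (log2 fold change -0.21 ± 0.041, adjusted p = 0.000241, and log2 fold change -0.31 ± 0.074, adjusted p = 0.0037), whereas its d5 rise with FGF2 rested on overlapping libraries (log2 fold change 0.21 ± 0.074, adjusted p = 0.0263). That call was lost without replicate 2 or 3 of Ctrl+vehicle at d5 (adjusted p = 0.0576 and 0.0998) and without replicate 1 or 3 of Ctrl+FGF2 at d5 (adjusted p = 0.081 and 0.15). Pfkm went the other way at d2.5, with 90.8, 92.1 and 92.3 CPM in the vehicle libraries, 72.4, 69 and 70.3 in the FGF2 libraries and 66.6, 70.1 and 64.8 in the knockdown libraries. All FGF2 libraries were below the vehicle libraries (log2 fold change -0.39 ± 0.043, adjusted p = 2.25e-09). At d5, with 59.3, 49.8 and 54.5 CPM in the vehicle libraries, 69.7, 66 and 69.5 in the FGF2 libraries and 62.4, 60.3 and 61.9 in the knockdown libraries, they were all above them (log2 fold change 0.34 ± 0.059, adjusted p = 0.00012). Pfkp showed no call with FGF2 on either day and stood at 55.4, 46.7 and 50.5 CPM in the vehicle libraries, 40.8, 49.3 and 50.1 in the FGF2 libraries and 29.4, 29.6 and 29.8 in the knockdown libraries at d5. There the 3 knockdown libraries were below every other library (log2 fold change -0.67 ± 0.082, adjusted p = 5.71e-06, and log2 fold change -0.77 ± 0.081, adjusted p = 6.51e-07 against Ctrl+vehicle). In the d2.5 libraries Pfkp read 53.7, 56.5 and 56.1 CPM in the vehicle libraries, 55.6, 59.5 and 57.8 in the FGF2 libraries and 49.4, 48.4 and 49 in the knockdown libraries (log2 fold change -0.24 ± 0.05, adjusted p = 0.000482 for the knockdown).

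Aldoa held at least 95.8% of the level of both aldolases per kb of exon in every group. It read 460.4, 486 and 482 CPM in the vehicle libraries, 699, 702 and 709 in the FGF2 libraries and 592, 579.5 and 564 in the knockdown libraries at d2.5, where FGF2 raised it (log2 fold change 0.55 ± 0.03, adjusted p = 1.95e-16) and the knockdown lowered it (log2 fold change -0.29 ± 0.03, adjusted p = 2.35e-08). At d5 its groups overlapped, with 261, 252 and 258 CPM in the vehicle libraries, 257, 271 and 267 in the FGF2 libraries and 253, 258 and 248 in the knockdown libraries, and neither FGF2 nor the knockdown gave a call (adjusted p = 0.214 and 0.156). Aldoc, an isoform known from brain, was lower, at 24.7, 23 and 21.5 CPM in the vehicle libraries, 38, 30.6 and 34.6 in the FGF2 libraries and 28.5, 27.8 and 27.2 in the knockdown libraries at d2.5. By d5 it had dropped to 1.21, 1.08 and 1.71 CPM in the vehicle libraries, 5.7, 4.56 and 5.66 in the FGF2 libraries and 1.79, 1.91 and 1.94 in the knockdown libraries. Within d5, each FGF2 library exceeded each vehicle library and each knockdown library (log2 fold change 1.99 ± 0.21 for FGF2, adjusted p = 4.84e-07, and -1.50 ± 0.19 for the knockdown, adjusted p = 9.97e-06). These d5 values rest on 12, 13 and 19 counts in the vehicle libraries and 62, 56 and 63 in the FGF2 libraries. Tpi1, triose phosphate isomerase, rose with FGF2 at d2.5 (log2 fold change 0.68 ± 0.032, adjusted p = 3.92e-18) and was not called at d5 (log2 fold change -0.039 ± 0.051, adjusted p = 0.558).

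Pfkfb3 and Pfkfb4 make and remove fructose-2,6-bisphosphate, the activator of phosphofructokinase. At d2.5, Pfkfb3 stood at 5.32, 6.45 and 5.72 CPM in the vehicle libraries, 8.38, 6.48 and 6.88 in the FGF2 libraries and 4.31, 3.5 and 4.42 in the knockdown libraries. The FGF2 libraries were hardly above the vehicle libraries (log2 fold change 0.30 ± 0.13, adjusted p = 0.049), and that call was lost under 11 other settings, DESeq2 among them (adjusted p = 0.152). These 11 include the fits without replicate 1 or 3 of Ctrl+vehicle (adjusted p = 0.161 and 0.105) or replicate 1 or 3 of Ctrl+FGF2 (adjusted p = 0.283 and 0.0513). The knockdown took Pfkfb3 below the vehicle level (log2 fold change -0.84 ± 0.15, adjusted p = 9.74e-05 against Ctrl+FGF2, and log2 fold change -0.54 ± 0.16, adjusted p = 0.00274 against Ctrl+vehicle). At d5, Pfkfb3 read 20.4, 17 and 19.3 CPM in the vehicle libraries, 8.91, 7.08 and 7.37 in the FGF2 libraries and 8.59, 8.81 and 8.86 in the knockdown libraries, with every vehicle library above every FGF2 library (log2 fold change -1.26 ± 0.11, adjusted p = 7.07e-08) and no call for the knockdown (log2 fold change 0.17 ± 0.13, adjusted p = 0.354). Pfkfb4, at 8.35, 9.81 and 9.35 CPM in the vehicle libraries, 6.9, 6.99 and 5.35 in the FGF2 libraries and 6.04, 7.23 and 5.84 in the knockdown libraries at d2.5 and 4.32, 4.33 and 5.92 CPM in the vehicle libraries, 5.42, 4.72 and 3.59 in the FGF2 libraries and 4.93, 5.32 and 4.48 in the knockdown libraries at d5, fell with FGF2 at d2.5 (log2 fold change -0.53 ± 0.13, adjusted p = 0.000424) and was called in no other comparison with FGF2 or of the knockdown under FGF2.

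The lower steps run from Gapdh to Pkm. In Ctrl+vehicle at d2.5 they included the 3 highest levels among the members per kb of exon. These were Gapdh (372 ± 13.8 CPM per kb), Pgk1 (356 ± 25.2) and Pkm (291 ± 8.32), where Gapdh and Pgk1 lay within their spread of each other. At d5 in Ctrl+FGF2, Pdk4 stood above Gapdh by this measure (148 ± 3.15 and 137 ± 3.21 CPM per kb). In Y/T dKD+FGF2 at d5, Pdk4 and Gapdh were at 127 ± 5.27 and 122 ± 2.38. Pgk1, phosphoglycerate kinase and the first ATP-yielding step, read 737, 848 and 809 CPM in the vehicle libraries, 1726, 1687 and 1705 in the FGF2 libraries and 1516, 1456 and 1459 in the knockdown libraries at d2.5. FGF2 raised it 2.12-fold (log2 fold change 1.08 ± 0.036, adjusted p = 4e-22) and the knockdown lowered it (log2 fold change -0.22 ± 0.035, adjusted p = 3.09e-05), with no overlap of groups. At d5 its values were 240.1, 208 and 215 CPM in the vehicle libraries, 202, 178 and 178 in the FGF2 libraries and 167, 164 and 164 in the knockdown libraries. Here all FGF2 libraries were below the vehicle libraries (log2 fold change -0.23 ± 0.056, adjusted p = 0.00201), and the knockdown libraries were lower still (log2 fold change -0.18 ± 0.056, adjusted p = 0.0227). The d5 call for the knockdown was lost without replicate 1 of Ctrl+FGF2 (adjusted p = 0.119) or replicate 2 or 3 of Y/T dKD+FGF2 (adjusted p = 0.0651 and 0.0736).

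Gapdh, which oxidizes glyceraldehyde-3-phosphate, read 1506, 1605 and 1507 CPM in the vehicle libraries, 2377, 2390.0 and 2389 in the FGF2 libraries and 2111, 1991 and 1946 in the knockdown libraries at d2.5, so FGF2 raised it (log2 fold change 0.62 ± 0.031, adjusted p = 1.57e-17) and the knockdown lowered it (log2 fold change -0.25 ± 0.031, adjusted p = 4.05e-07). At d5, Gapdh read 577, 495 and 541 CPM in the vehicle libraries, 581, 556 and 562 in the FGF2 libraries and 513, 494 and 502 in the knockdown libraries, and the FGF2 and vehicle libraries overlapped (log2 fold change 0.089 ± 0.047, adjusted p = 0.128). Pkm, pyruvate kinase, went up with FGF2 at d2.5 (log2 fold change 0.44 ± 0.028, adjusted p = 1.15e-14) and fell at d5 (log2 fold change -0.28 ± 0.042, adjusted p = 3.05e-05), and Pgam1, phosphoglycerate mutase, did the same (log2 fold change 0.46 ± 0.045, adjusted p = 1.42e-10, and log2 fold change -0.27 ± 0.051, adjusted p = 0.00028). Knockdown lowered Pgam1 at d2.5 (log2 fold change -0.19 ± 0.045, adjusted p = 0.00185) and raised it at d5 (log2 fold change 0.14 ± 0.052, adjusted p = 0.0492), and the d5 call was lost under 10 other settings, including 6 of the 9 fits without 1 library (adjusted p up to 0.205). Eno1 and Eno2 moved in opposite directions with FGF2 at d2.5. A further enolase gene, Eno3, is not a member and was read at 38.8 ± 3.63 CPM in Ctrl+FGF2 at d2.5. Eno3 fell with the knockdown on that day (log2 fold change -0.35 ± 0.068, adjusted p = 0.000349). Eno1, the ubiquitous form, read 506, 524 and 517 CPM in the vehicle libraries, 928, 911 and 908 in the FGF2 libraries and 799, 795 and 765 in the knockdown libraries at d2.5 and rose with FGF2 (log2 fold change 0.82 ± 0.03, adjusted p = 4.54e-21), and at d5, with 159, 146 and 159 CPM in the vehicle libraries, 158, 152 and 157 in the FGF2 libraries and 136, 140.0 and 133 in the knockdown libraries, it did not pass the test (log2 fold change 0.026 ± 0.043, adjusted p = 0.646). Eno2, the form known from neurons, fell with FGF2 at d2.5, with 24.3, 20.9 and 21.6 CPM in the vehicle libraries, 16.9, 16.3 and 16.8 in the FGF2 libraries and 17.1, 20.4 and 17.9 in the knockdown libraries (log2 fold change -0.43 ± 0.082, adjusted p = 3.03e-05). At d5, Eno2 read 25.5, 33.2 and 30.1 CPM in the vehicle libraries, 23.6, 31.4 and 26.9 in the FGF2 libraries and 41.1, 40.5 and 43.3 in the knockdown libraries, and the knockdown libraries lay above all others (log2 fold change 0.59 ± 0.093, adjusted p = 8.56e-05). Reads of the processed copy Eno1b came to 14.3% of those of Eno1, so the level of Eno1 is uncertain by that share, and 15.3% of the exon length of Pkm overlaps another gene on the same strand.

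Lactate dehydrogenase A (Ldha) favours lactate formation and Ldhb the return to pyruvate. Ldha read 459, 542 and 520.5 CPM in the vehicle libraries, 819.9, 818 and 829 in the FGF2 libraries and 817, 798 and 788 in the knockdown libraries at d2.5. FGF2 raised it (log2 fold change 0.69 ± 0.039, adjusted p = 4.29e-16), while the knockdown libraries lay just below the FGF2 libraries and did not pass the test (log2 fold change -0.046 ± 0.038, adjusted p = 0.419). At d5 the groups overlapped, with 194, 167 and 177 CPM in the vehicle libraries, 179, 148 and 172 in the FGF2 libraries and 175, 181 and 176 in the knockdown libraries (log2 fold change -0.097 ± 0.062, adjusted p = 0.211 for FGF2). Ldhb took the opposite course, with 28.9, 24.5 and 29.5 CPM in the vehicle libraries, 21.3, 23.4 and 22.1 in the FGF2 libraries and 24.3, 22.6 and 24.2 in the knockdown libraries at d2.5 (log2 fold change -0.32 ± 0.073, adjusted p = 0.000341 for FGF2). At d5 it read 32.2, 31.5 and 31.1 CPM in the vehicle libraries, 92.2, 82.8 and 85.1 in the FGF2 libraries and 76.5, 80 and 76.3 in the knockdown libraries. Every FGF2 library was above every vehicle library, a 2.77-fold rise (log2 fold change 1.47 ± 0.055, adjusted p = 1.64e-12), and the knockdown lowered it a little (log2 fold change -0.16 ± 0.048, adjusted p = 0.015). The d5 knockdown call was lost without replicate 1 of Ctrl+FGF2 (adjusted p = 0.0893) or replicate 1 or 3 of Y/T dKD+FGF2 (adjusted p = 0.0556 and 0.0626).

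Slc16a1 (MCT1) moves lactate and pyruvate across the plasma membrane, and it reversed with the day. At d2.5 it read 120.1, 121 and 121 CPM in the vehicle libraries, 294, 306 and 300.5 in the FGF2 libraries and 392, 368 and 387 in the knockdown libraries. FGF2 raised it 2.47-fold (log2 fold change 1.30 ± 0.035, adjusted p = 1.71e-24), and the knockdown raised it further (log2 fold change 0.34 ± 0.032, adjusted p = 3.78e-09), so that Y/T dKD+FGF2 stood above both other groups (log2 fold change 1.64 ± 0.035, adjusted p = 3.75e-27 against Ctrl+vehicle). At d5, Slc16a1 read 84.1, 61.4 and 73 CPM in the vehicle libraries, 36.3, 36.2 and 39.2 in the FGF2 libraries and 53.2, 51.6 and 50.2 in the knockdown libraries. All FGF2 libraries now lay below all vehicle libraries (log2 fold change -0.95 ± 0.087, adjusted p = 1.11e-07), and the knockdown libraries lay between both (log2 fold change 0.47 ± 0.091, adjusted p = 0.000678 against Ctrl+FGF2, and log2 fold change -0.48 ± 0.084, adjusted p = 0.000162 against Ctrl+vehicle). Slc16a3 (MCT4), the lactate exporter of strongly glycolytic cells and a known HIF target, had 2, 5 and 1 counts summed over the vehicle, FGF2 and knockdown libraries of d2.5, and 2, 2 and 1 at d5. A difference in Slc16a3 was not detectable at this depth.

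The pyruvate dehydrogenase kinases did not move as a group. Pdk1, the form known to be raised by HIF-1, read 44.1, 42.3 and 45.6 CPM in the vehicle libraries, 78.4, 75 and 77.3 in the FGF2 libraries and 73.8, 67.2 and 73.2 in the knockdown libraries at d2.5 and rose with FGF2 (log2 fold change 0.80 ± 0.049, adjusted p = 2.95e-15). At d5 it read 38.5, 36.4 and 38.9 CPM in the vehicle libraries, 38.9, 38.4 and 40.1 in the FGF2 libraries and 24.1, 23 and 23.5 in the knockdown libraries, with no call for FGF2 (log2 fold change 0.059 ± 0.058, adjusted p = 0.422) and every knockdown library below every other library (log2 fold change -0.74 ± 0.062, adjusted p = 6.03e-08). Pdk2 changed direction, with 14.9, 12.6 and 13.1 CPM in the vehicle libraries, 3.03, 3.06 and 4.41 in the FGF2 libraries and 3.06, 3.73 and 5.05 in the knockdown libraries at d2.5 and 13.1, 15.1 and 14.4 CPM in the vehicle libraries, 25.9, 27.7 and 27.1 in the FGF2 libraries and 16.9, 18.2 and 15.5 in the knockdown libraries at d5. It fell with FGF2 at d2.5 (log2 fold change -1.95 ± 0.14, adjusted p = 2.69e-13) and rose at d5 (log2 fold change 0.93 ± 0.085, adjusted p = 8.81e-08), where the knockdown lowered it (log2 fold change -0.68 ± 0.082, adjusted p = 5.13e-06). Pdk4, the form raised by fasting and fatty acids, had the highest level per kb of exon in the family, with 251.1, 236 and 246 CPM in the vehicle libraries, 289, 259 and 282 in the FGF2 libraries and 347, 344 and 356 in the knockdown libraries at d2.5 and 284, 282 and 284 CPM in the vehicle libraries, 506, 524 and 526 in the FGF2 libraries and 424, 459.8 and 450.5 in the knockdown libraries at d5. Knockdown raised Pdk4 at d2.5 (log2 fold change 0.33 ± 0.036, adjusted p = 9.57e-08) and lowered it at d5 (log2 fold change -0.23 ± 0.036, adjusted p = 9.01e-05), and FGF2 raised it on both days (log2 fold change 0.17 ± 0.037, adjusted p = 0.000207, and log2 fold change 0.88 ± 0.037, adjusted p = 5.07e-12). Pdk3 stayed between 26.7 and 37.1 CPM in all 18 libraries and was not called with FGF2 on either day. Its d2.5 rise with the knockdown (log2 fold change 0.22 ± 0.065, adjusted p = 0.0135) was lost without replicate 3 of Ctrl+FGF2 (adjusted p = 0.0612) or replicate 1 or 3 of Y/T dKD+FGF2 (adjusted p = 0.084 and 0.0816).

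Of the HIF α subunits, Hif1a mRNA did not rise with FGF2. It read 259.6, 258 and 269.5 CPM in the vehicle libraries, 219.5, 225 and 229 in the FGF2 libraries and 218, 223 and 219 in the knockdown libraries at d2.5 and 406, 404 and 400.4 CPM in the vehicle libraries, 338, 367 and 351 in the FGF2 libraries and 369.6, 370.1 and 380.3 in the knockdown libraries at d5, and all FGF2 libraries lay below the vehicle libraries on both days (log2 fold change -0.24 ± 0.033, adjusted p = 2.49e-07, and log2 fold change -0.18 ± 0.036, adjusted p = 0.000449). HIF-1α is controlled mainly through its protein, which was not measured here. Epas1 (HIF-2α) was low, with 1.86, 2.19 and 2.16 CPM in the vehicle libraries, 0.423, 0.291 and 1.07 in the FGF2 libraries and 0.166, 0.467 and 0.948 in the knockdown libraries at d2.5 and 2.01, 1.08 and 2.06 CPM in the vehicle libraries, 1.29, 1.3 and 1.62 in the FGF2 libraries and 2.21, 2.41 and 2.75 in the knockdown libraries at d5. It fell with FGF2 at d2.5 (log2 fold change -1.77 ± 0.35, adjusted p = 5.17e-05) and rose with the knockdown at d5 (log2 fold change 0.79 ± 0.26, adjusted p = 0.0261), a call that was lost without replicate 1 or 2 of Ctrl+FGF2 (adjusted p = 0.0706 and 0.0757) or replicate 2 or 3 of Y/T dKD+FGF2 at d5 (adjusted p = 0.0618 and 0.0886).

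The prolyl hydroxylase genes Egln1 (PHD2) and Egln3 (PHD3) are themselves HIF targets. At d2.5, Egln3 read 22.4, 28.5 and 25.4 CPM in the vehicle libraries, 86.4, 81.8 and 86.2 in the FGF2 libraries and 65.5, 59.1 and 62.6 in the knockdown libraries. FGF2 raised it 3.3-fold (log2 fold change 1.72 ± 0.061, adjusted p = 2.35e-21) and the knockdown lowered it (log2 fold change -0.45 ± 0.054, adjusted p = 2.48e-07), with no overlap of groups. At d5, with 10.1, 11.2 and 10.2 CPM in the vehicle libraries, 17.8, 10.6 and 15.6 in the FGF2 libraries and 8.68, 10.2 and 10.8 in the knockdown libraries, the FGF2 libraries overlapped both other groups. The d5 call for FGF2 (log2 fold change 0.49 ± 0.15, adjusted p = 0.0139) was lost without replicate 1 or 3 of Ctrl+FGF2 (adjusted p = 0.0868 and 0.0601), and the d5 fall with the knockdown (log2 fold change -0.57 ± 0.15, adjusted p = 0.00824) was lost without replicate 1 of Y/T dKD+FGF2 (adjusted p = 0.0535). Egln1 read 50.4, 52.9 and 50.5 CPM in the vehicle libraries, 88, 89.8 and 94.4 in the FGF2 libraries and 79.5, 82.8 and 84.3 in the knockdown libraries at d2.5 and 76.3, 74 and 76.5 CPM in the vehicle libraries, 65.7, 62.9 and 61.9 in the FGF2 libraries and 68.4, 63.6 and 64.9 in the knockdown libraries at d5. FGF2 raised Egln1 at d2.5 (log2 fold change 0.81 ± 0.046, adjusted p = 4.3e-16) and lowered it at d5 (log2 fold change -0.24 ± 0.048, adjusted p = 0.000557). Its fall with the knockdown at d2.5 (log2 fold change -0.15 ± 0.044, adjusted p = 0.0112) was lost without replicate 3 of Ctrl+FGF2 (adjusted p = 0.0884) or replicate 1 of Y/T dKD+FGF2 (adjusted p = 0.071).

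All 7 hypoxia reporters rose with FGF2 at d2.5, with log2 fold changes from 0.32 to 3.51 and a median of 1.07. Over all genes 33.5% were called higher. The reporters were chosen with earlier results of these data known. Of 34 other HIF targets, described below, 16 rose and 11 fell, with a median of 0.029. Car9, carbonic anhydrase 9 and a classical marker of hypoxic cells, had 5, 11 and 5 counts in the vehicle libraries, 88, 87 and 70 in the FGF2 libraries and 55, 60 and 60 in the knockdown libraries. In CPM these were 0.345, 0.71 and 0.386 CPM in the vehicle libraries, 6.2, 6.33 and 4.68 in the FGF2 libraries and 4.55, 4.67 and 4.74 in the knockdown libraries (log2 fold change 3.51 ± 0.25, adjusted p = 9.21e-14 for FGF2). The change was large against the replicate spread, yet the level stayed under 7 CPM. Ankrd37, an ankyrin repeat gene that HIF-1 is known to raise, read 3.73, 4.0 and 4.02 CPM in the vehicle libraries, 12.3, 12.8 and 9.96 in the FGF2 libraries and 9.03, 9.18 and 11.1 in the knockdown libraries at d2.5 (log2 fold change 1.56 ± 0.13, adjusted p = 8.3e-12). Ddit4 (REDD1), an inhibitor of mTORC1, read 47.6, 37.1 and 47.8 CPM in the vehicle libraries, 133, 122 and 129 in the FGF2 libraries and 122, 117 and 120.2 in the knockdown libraries at d2.5, so FGF2 raised it 2.89-fold (log2 fold change 1.53 ± 0.058, adjusted p = 1.24e-20). Neither Car9, Ankrd37 nor Ddit4 passed the test for the knockdown at d2.5 (log2 fold changes -0.30, -0.26 and -0.11).

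Ndrg1, a growth-arrest gene raised by hypoxia, was the 1 reporter that fell with the knockdown at d2.5. At d2.5 it read 52.7, 52 and 55.5 CPM in the vehicle libraries, 111, 112 and 115 in the FGF2 libraries and 70.5, 74.6 and 73.6 in the knockdown libraries, and each group was separate from the others (log2 fold change 1.07 ± 0.044, adjusted p = 8.83e-20 for FGF2, and log2 fold change -0.64 ± 0.042, adjusted p = 1.98e-12 for the knockdown). At d5 it read 87.2, 79 and 82.5 CPM in the vehicle libraries, 30.2, 38.4 and 32 in the FGF2 libraries and 36.5, 40.3 and 37.3 in the knockdown libraries. There every vehicle library was above both FGF2 groups (log2 fold change -1.28 ± 0.073, adjusted p = 2.71e-10), which overlapped each other (log2 fold change 0.17 ± 0.08, adjusted p = 0.119). Kdm3a, a histone H3K9 demethylase, rose with FGF2 on both days (log2 fold change 0.37 ± 0.047, adjusted p = 3.73e-08, and log2 fold change 0.49 ± 0.054, adjusted p = 8.83e-07). Its small rise with the knockdown at d2.5 (log2 fold change 0.15 ± 0.045, adjusted p = 0.0127) was lost without replicate 2 or 3 of Ctrl+FGF2 (adjusted p = 0.0561 and 0.0771). The mitophagy receptor Bnip3 (log2 fold change 0.35 ± 0.045, adjusted p = 4.61e-08) and the mitochondrial protein gene Higd1a (log2 fold change 0.32 ± 0.086, adjusted p = 0.00143) rose least with FGF2 at d2.5. At d5, Bnip3, Ddit4 and Higd1a were not called with FGF2 (log2 fold changes -0.14, 0.011 and 0.053), and none of the 5 reporters tested was called for the knockdown. At an unadjusted p under 0.05 the number of these 5 called for the knockdown was 1, and DESeq2 called 0.

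**Figure D2:**
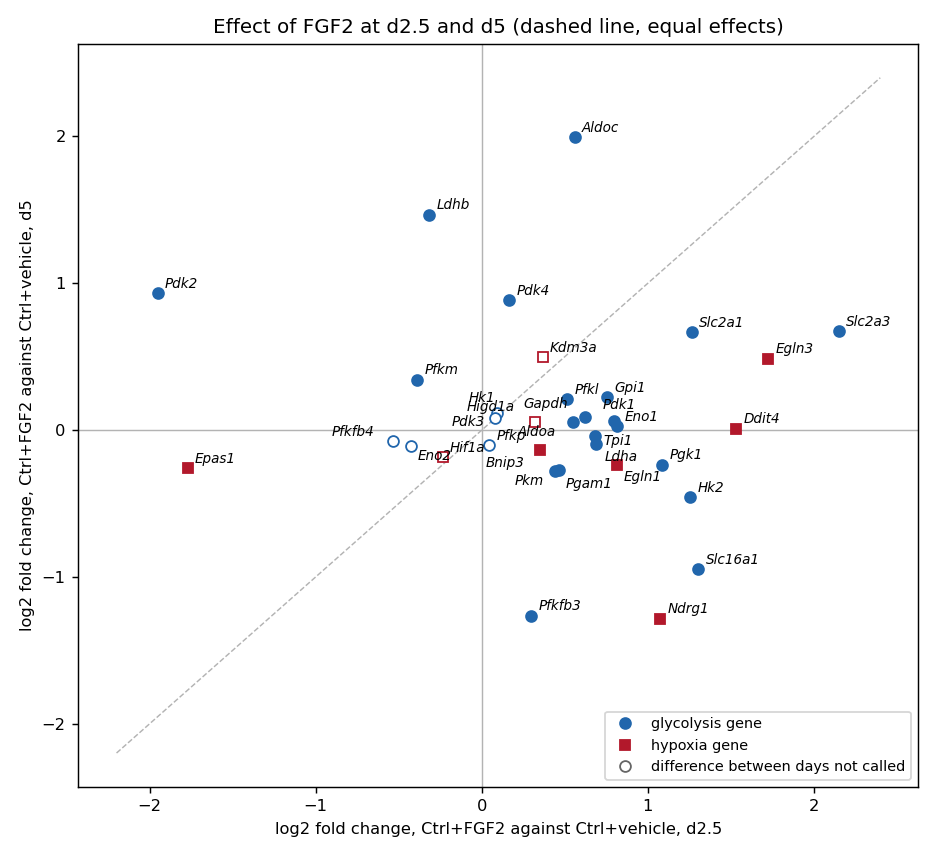
Log2 fold change of Ctrl+FGF2 against Ctrl+vehicle at d2.5 (horizontal axis) and at d5 (vertical axis) for the 35 members tested on both days. Filled symbols are members whose effects differed between the days at an adjusted p of 0.05 and the dashed line marks equal effects; Slc16a1 (1.30 and -0.95), Ndrg1 (1.07 and -1.28) and Hk2 (1.25 and -0.46) lie below it and Pdk2 (-1.95 and 0.93) and Ldhb (-0.32 and 1.47) above it.

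The effect of FGF2 differed between the days for most members when the difference itself was tested in 1 fit of all 18 libraries. It was lower at d5 than at d2.5 for 22 of 37 members, higher for 6 and not called for 9, beside 29.1% of all genes lower and 31.8% higher. The median difference was -0.56 over the members. Each day is 1 batch in the labels, so a difference in effect between days and one between batches cannot be told apart. Among members called in opposite directions on the 2 days, the differences were -2.28 ± 0.09 for Slc16a1, -2.38 ± 0.083 for Ndrg1, -1.74 ± 0.074 for Hk2 and -1.34 ± 0.07 for Pgk1. In the other direction, Pdk2 gave 2.86 ± 0.17 and Ldhb 1.76 ± 0.094. The knockdown effect differed between the days for 13 of 37 members, higher at d5 for 8 and lower for 5, with 11.6% of all genes higher and 9.35% lower. The 5 lower ones were Pfkp, Aldoc, Pdk1, Pdk2 and Pdk4, and Pdk1 (difference of the log2 fold changes -0.63 ± 0.078, adjusted p = 6.72e-07) had the knockdown effect seen at d5 without a call at d2.5. A d2.5 call for Pdk1 was gained under 3 other settings. These were the fit of only the 2 groups compared and the fits without replicate 1 or 2 of Ctrl+vehicle. For Pdk2 the difference (difference of the log2 fold changes -0.84 ± 0.21, adjusted p = 0.00389) was lost without replicate 3 of Y/T dKD+FGF2 at d2.5 (adjusted p = 0.0524).

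Between d2.5 and d5 the levels of most members fell in every group. The 38 genes together went from 0.797% ± 0.0234 to 0.354% ± 0.0177 of assigned reads (SD, n = 3) in Ctrl+vehicle, from 1.26% ± 0.0124 to 0.39% ± 0.0086 in Ctrl+FGF2 and from 1.11% ± 0.0172 to 0.361% ± 0.00125 in Y/T dKD+FGF2. These shares are not TMM-scaled. The scaled sums at d2.5 were 7327 to 7771 CPM, 11700 to 11850 and 10320 to 10720 in the same order of groups. At d5 they were 3780 to 4109, 3975 to 4061 and 3768 to 3846 CPM. In Ctrl+vehicle 21 of 37 members fell and 9 rose, where 33.2% of all genes were lower and 33.1% higher. In Ctrl+FGF2 25 fell and 6 rose (38.8% of all genes lower, 41.2% higher), and in Y/T dKD+FGF2 27 fell and 8 rose (38.1% lower, 40.3% higher). The labels put each day in a batch of its own, so the day and the batch cannot be told apart here. The fall in Ctrl+FGF2 was led by Pgk1 (-3.20 ± 0.052), Slc16a1 (-3.01 ± 0.064) and Eno1 (-2.55 ± 0.037) among members above 100 CPM at d2.5. Ankrd37 went from 500 to 5 counts over the 3 Ctrl+FGF2 libraries. Car9 went from 21 to 1 counts in Ctrl+vehicle and from 245 to 4 in Ctrl+FGF2. In Y/T dKD+FGF2 it went from 175 counts to 0, which is at least 52.2-fold lower when 3 counts over the group are taken as the floor, and this bound left the median of the members in that group at -0.80. Some members rose instead. In Ctrl+vehicle these included Hk2 (1.67 ± 0.055), Pfkfb3 (1.69 ± 0.11) and Hif1a (0.62 ± 0.034), and in Ctrl+FGF2 they included Pdk2 (2.93 ± 0.12), Ldhb (1.96 ± 0.062) and Pdk4 (0.91 ± 0.039).

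Because isoforms moved apart, their shares within a family changed. Shares are percentages of the summed CPM per kb of exon of those genes of a family that are members (mean ± SD, n = 3) and carry no test. Hk2 held 18.1% ± 0.194 of hexokinase 1 and 2 in Ctrl+vehicle and 33% ± 1.21 in Ctrl+FGF2 at d2.5, and 50.4% ± 1.06 and 40.5% ± 2.17 at d5. FGF2 thus went with a larger share of Hk2 on the first day and a smaller one on the second. Ldhb held 10.4% ± 1.52 and 5.4% ± 0.259 of both dehydrogenases at d2.5, and 27.1% ± 1.26 and 52.4% ± 1.58 at d5. It thus passed Ldha in Ctrl+FGF2 at d5 by this measure only. In CPM, Ldha stayed higher there (166 ± 16.3 against 86.7 ± 4.89 for Ldhb). The exon lengths used were 3310 bases for Ldha and 1570 for Ldhb. In Y/T dKD+FGF2 at d5 the share of Ldhb was 48% ± 0.277. At d5, Eno2 made up 18% ± 2.58 of enolase 1 and 2 with vehicle, 16.7% ± 2.29 with FGF2 and 25.9% ± 1.18 after the knockdown. Eno3 is not a member and was left out of this share. Per kb of exon, Pfkm had the largest phosphofructokinase share in every group, from 50.5% ± 0.294 in Ctrl+FGF2 at d2.5 to 72.9% ± 0.132 in Y/T dKD+FGF2 at d5. In CPM, Pfkl was above Pfkm at d2.5 in Ctrl+FGF2 (109.5 ± 3.7 and 70.55 ± 1.72) and in Y/T dKD+FGF2 (94.9 ± 1.48 and 67.1 ± 2.7). The exon lengths used were 6675 bases for Pfkl and 3340 for Pfkm. Pdk4 led its family per kb of exon in every group, from 76.8% ± 0.464 to 86% ± 0.57. Egln3 held 40% ± 2.29 of Egln1 and Egln3 in Ctrl+vehicle and 55.8% ± 1.06 in Ctrl+FGF2 at d2.5, and 15.8% ± 1.0 and 23.6% ± 4.45 at d5.

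**Figure D3:**
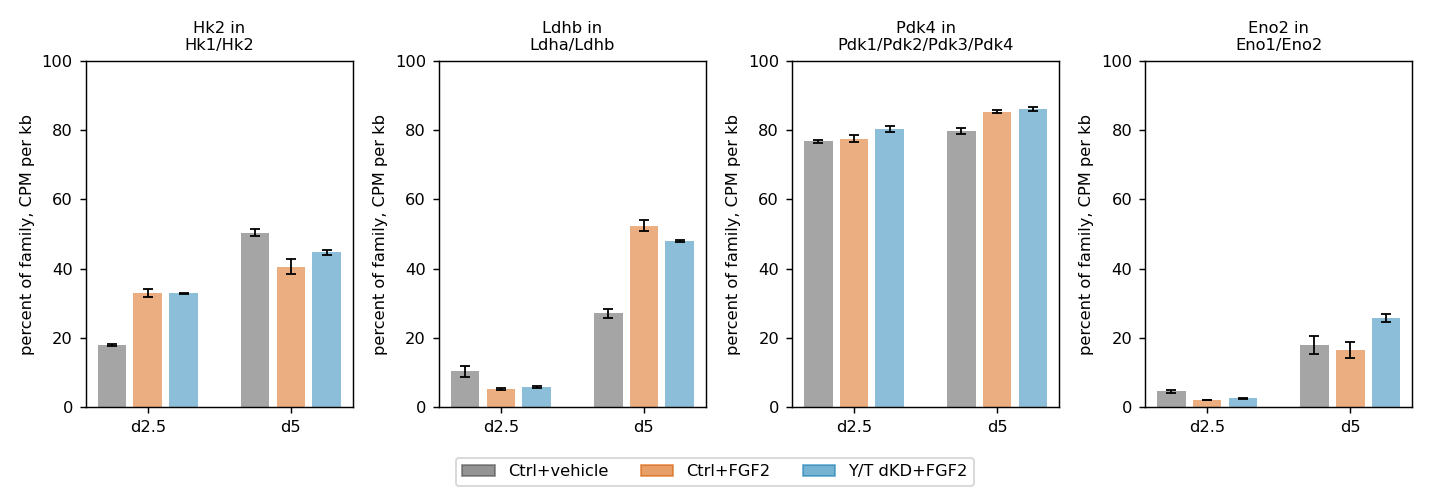
Share of Hk2, Ldhb, Pdk4 and Eno2 in the summed level (CPM per kb of exon) of the members of their gene family in each group, as mean percent ± SD (n = 3). Eno3 is not a member and was left out. Ldhb passes 50% in Ctrl+FGF2 at d5 (52.4% ± 1.58) and Hk2 has its highest share in Ctrl+vehicle at d5 (50.4% ± 1.06), while Pdk4 stays between 76.8% and 86%. In CPM not divided by exon length, Ldha stayed above Ldhb in Ctrl+FGF2 at d5 (166 ± 16.3 and 86.7 ± 4.89).

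Other genes of these pathways were read from 4 lists of genes that are not among the 38. Of 15 other glycolytic genes tested at d2.5, 4 rose and 6 fell with FGF2, and of 13 genes at the entry of pyruvate into the mitochondrion (pyruvate dehydrogenase, its phosphatases, carriers and malic enzymes) 5 rose and 6 fell, beside 33.5% of all genes higher and 34.1% lower. Pgam2, the muscle form of phosphoglycerate mutase, fell most among the former (log2 fold change -4.05 ± 0.27, adjusted p = 2.56e-14). Its level was low, at 5.11 ± 0.386 CPM (SD, n = 3) with vehicle and 0.303 ± 0.0809 with FGF2, near the floor given above. Of 15 genes of the HIF machinery 4 rose and 9 fell. These included Cited2, a competitor of HIF for its coactivators, which fell at d2.5 (log2 fold change -1.40 ± 0.043, adjusted p = 4.96e-23) and rose at d5 (log2 fold change 0.89 ± 0.04, adjusted p = 1.58e-11), and Siah2, a ubiquitin ligase that acts on the prolyl hydroxylases, which rose at d2.5 (log2 fold change 0.72 ± 0.075, adjusted p = 6.56e-10) and fell at d5 (log2 fold change -0.96 ± 0.11, adjusted p = 1.36e-06). Siah1a fell at d2.5 (log2 fold change -0.63 ± 0.067, adjusted p = 9.75e-10). Arnt2 rose on both days (log2 fold change 0.50 ± 0.049, adjusted p = 1.71e-10, and log2 fold change 1.05 ± 0.064, adjusted p = 6.33e-10). Of 34 other HIF targets 16 rose and 11 fell with FGF2 at d2.5, with a median of 0.029. Among them Angptl4, an inhibitor of lipoprotein lipase (log2 fold change 2.54 ± 0.28, adjusted p = 1.81e-09), and the secreted glycoprotein gene Stc2 (log2 fold change 2.44 ± 0.094, adjusted p = 2.14e-20) rose most, and Lox, the collagen cross-linking oxidase, fell most (log2 fold change -1.38 ± 0.032, adjusted p = 6.37e-26). The wider list of HIF targets had a median near 0 beside 1.07 for the 7 reporters. Both lists were chosen with earlier results of these data known, and the part of that choice in this difference was not tested.

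At d5, FGF2 raised 1 and lowered 4 of the 15 other glycolytic genes, raised 3 and lowered 4 of the 13 pyruvate genes, raised 6 and lowered 4 of the 15 genes of the HIF machinery and raised 11 and lowered 16 of the 34 other HIF targets, beside 23.5% of all genes higher and 23.7% lower. The falls included Rora, a nuclear receptor (log2 fold change -4.03 ± 0.36, adjusted p = 7.02e-08), and Vldlr, a lipoprotein receptor (log2 fold change -2.70 ± 0.14, adjusted p = 5.75e-11). Rora was low, at 4.98 ± 0.711 CPM with vehicle and 0.286 ± 0.17 with FGF2, near the floor given above. Among the HIF targets that rose, Ppfia4 (log2 fold change 1.72 ± 0.17, adjusted p = 2.82e-07) and Angptl4 (log2 fold change 1.23 ± 0.2, adjusted p = 5.52e-05) rose most. Under the knockdown at d2.5, 3 of the 34 other HIF targets rose and 12 fell, beside 10.8% of all genes higher and 13.6% lower, and at d5 9 rose and 11 fell, beside 15.6% and 16.1%. Adm, which encodes the vasodilator peptide adrenomedullin, fell on both days (log2 fold change -1.49 ± 0.14, adjusted p = 4.4e-09, and log2 fold change -0.94 ± 0.13, adjusted p = 2.9e-05). Tfrc, the transferrin receptor, rose on both days (log2 fold change 0.49 ± 0.071, adjusted p = 5.31e-06, and log2 fold change 1.13 ± 0.088, adjusted p = 2.67e-08). Of the other glycolytic genes 1 rose and 3 fell with the knockdown at d2.5 and 4 rose and 1 fell at d5, and of the pyruvate genes 1 rose and 0 fell at d2.5 and 1 rose and 2 fell at d5. The d5 falls included Pcx, pyruvate carboxylase (log2 fold change -0.81 ± 0.052, adjusted p = 2.23e-09). The HIF machinery had 3 rises and 5 falls at d2.5 and 2 rises and 3 falls at d5 with the knockdown, and Cited2 fell at d5 (log2 fold change -0.87 ± 0.04, adjusted p = 3.55e-11).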

How the data were processed

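Poly(A) RNA of 18 libraries was sequenced by the authors with a SMARTER mRNA-Seq kit. The deposited files hold gene counts per library in the layout of STAR; the submitters' processing notes name mm10, FastQC, STAR, Picard and featureCounts without roles or versions. The reverse-strand counts were used, since 96.0 to 96.6% of stranded gene reads lay there; 27.0 to 34.4% of reads were counted to no gene and stayed out. Identifiers were matched to symbols through GENCODE M21 (55154 of 55335). Members and lists were chosen with earlier results of these data known. Counts were tested with edgeR 4.0.16 (R 4.3.3; quasi-likelihood test, TMM, filterByExpr, Benjamini-Hochberg over all genes tested, threshold 0.05), within each day on 9 libraries, and across days on 18 (14198 genes). The SE was taken from the F statistic, as the size of the log2 fold change over the root of F. Scripts were tested on simulated data. Named genes were the 5 largest calls of each within-day comparison, fixed gene families, and the 2 largest rises and falls of each further list, of which a part is printed. Alternatives were DESeq2 1.42.0, RLE factors, other filters, strand, threshold, block and samples. The main fits did not pair libraries by replicate number. Figures were drawn with matplotlib 3.10.9.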

Additional observations from a re-analysis of the deposited data

Results flagged for a closer look

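The effect of FGF2 differed between d2.5 and d5 for 28 of 37 members by a test of the difference itself, where 31.8% of all genes were called higher and 29.1% lower. Each day's effect comes from 1 batch, so the day and the batch cannot be told apart in these differences. Of these, 11 were called in opposite directions on the 2 days. The effect at d5 minus that at d2.5, on the log2 scale, was -1.74 for Hk2, -1.59 for Pfkfb3, -1.34 for Pgk1, -0.76 for Pgam1, -0.74 for Pkm, -2.28 for Slc16a1, -1.07 for Egln1 and -2.38 for Ndrg1, all higher with FGF2 at d2.5 and lower at d5. It was 0.71 for Pfkm, 1.76 for Ldhb and 2.86 for Pdk2, which were lower with FGF2 at d2.5 and higher at d5. The d2.5 call of Pfkfb3 was lost under other settings, as given above.

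The knockdown effect differed between the days for 13 of 37 members, beside 11.6% of all genes called higher and 9.35% lower. Opposite calls were made for Pgam1, with a difference of 0.33, and for Pdk4, with -0.56, and the d5 call of Pgam1 was among those lost under other settings.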

How the results depend on the processing

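No called result changed direction under the alternatives run for it. Counts of members that moved by over 1.5 times were few. The number of members higher after the knockdown at d2.5 was 4, was 2 at an adjusted p under 0.01, and ranged from 2 to 4 without 1 library. At d5 it was 4, was 2 at an adjusted p under 0.01 and 2 with DESeq2, and ranged from 2 to 4 without 1 library. Members whose knockdown effect was higher at d5 than at d2.5 numbered 8, and 5 at an adjusted p under 0.01. Over all genes, an adjusted p under 0.01 left 845 of 1483 higher and 1212 of 1862 lower for the knockdown at d2.5, 1375 of 2079 higher at d5, and 995 of 1646 higher and 786 of 1327 lower for the difference of the knockdown effect between days. Here the stricter threshold itself accounts for fewer calls, and the cause of the other losses was not tested. Without 1 library, the members that rose with FGF2 numbered 26 to 28 at d2.5 and 9 to 13 at d5. Deviations of same-numbered libraries from their group means correlated at -0.084 to 0.046 at d2.5 and at -0.069 to 0.16 at d5. The 2 correlations over 0.1 at d5 were between Ctrl+vehicle and Ctrl+FGF2 (0.135 for replicate 1 and 0.158 for replicate 2). Crossing replicates 1 and 2 of these groups gave -0.125 and -0.157. Such weak correlations cannot decide whether same-numbered libraries belong together, and the main fits used no pairing. With the replicate block, 396 of 401 results kept their side of the threshold, 2 were lost and 3 gained. The median log2 fold change of all genes was -0.017 to 0.034 with TMM, -0.0041 to 0.014 with RLE factors and -0.0041 to 0.014 with DESeq2 over the comparisons. Members of low counts had no value under the filter of 10 counts in every sample. Depth limits Slc16a3 on both days and Car9 and Ankrd37 at d5.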

Other observations

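Gapdh serves as a common reference transcript and also as a member of glycolysis. Its level was 1539 ± 56.8 CPM (SD, n = 3) with vehicle, 2385 ± 7.31 with FGF2 and 2016 ± 85.2 after the knockdown at d2.5, and 537 ± 41.2, 566 ± 13.2 and 503 ± 9.85 at d5. The change from d2.5 to d5 was -1.52 ± 0.042, -2.07 ± 0.042 and -2.0 ± 0.042 (log2, SE) in the same order of groups, and the FGF2 effect at d2.5 was 0.62 ± 0.031. A transcript level expressed relative to Gapdh would carry these differences.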
